A study of Mus musculus with 48 samples.

Results

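The arcuate nucleus, a cell group at the base of the hypothalamus, was compared with the left nodose ganglion, the sensory ganglion of the vagus nerve, in the RNA sequencing libraries of Control mice. The libraries were chosen by their labels as all Control libraries of both tissues, which gave 24 of the 48 libraries in the series: 12 arcuate and 12 nodose, with 3 of each at ZT 4, 10, 16 and 22, where ZT is the zeitgeber hour counted from lights on. All animals were male C57Bl/6J mice of 10 to 12 weeks on chow, housed at 27 °C. All of them, in both genotype groups, carried floxed alleles of Rev-erba and Rev-erbb. These are the genes of the nuclear receptors of the circadian clock named Nr1d1 and Nr1d2 in the count table. Control mice had received AAV8-TBG-EGFP by tail vein at 6 to 10 weeks of age, 2 to 4 weeks before collection. This virus carries green fluorescent protein behind a promoter of hepatocytes, so neither tissue studied here was its target. The other 24 libraries came from HepDKO mice, which received AAV8-TBG-Cre in its place, and they served only as a second set in which the tissue difference could be looked at.

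Each library was a pool. An arcuate pool held micropunches of 3 mice in the protocol text and of 3 to 4 mice in the design text, and a nodose pool held the left ganglia of 4 mice. The labels do not say whether a mouse gave tissue to both kinds of pool. Total RNA was purified in the same way from both tissues, but the libraries were not made in the same way. Nodose libraries were made from 500 ng of total RNA with a KAPA HyperPrep kit that includes RiboErase, which removes ribosomal RNA and keeps transcripts with or without a poly(A) tail. Arcuate libraries were made and sequenced by a commercial provider with a method that is not given in the sources used here. Tissue, preparation and sequencing therefore cannot be told apart in any difference below, and in pooled bulk RNA fewer cells of a type and less RNA per cell of that type cannot be told apart either. The p-values measure the spread between pools within a tissue and say nothing of the preparation.

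Arcuate libraries held 15483922 to 18180348 counts (median 17324244) and nodose libraries held 1813994 to 10422914 (median 6150743). Within a time point the biological coefficient of variation over 14035 genes was 7.21% in arcuate and 18.7% in nodose. Nodose ZT4 replicate 3 stood apart by its ribosomal RNA symbol Rn45s, with 16.9% of its counts, whereas the median nodose library had 2.1%. The 95% Wilson interval of the 16.9% was 16.8 to 16.9%, which covers counting error only. Nodose ZT4 replicate 1 and ZT16 replicate 3 were the shallowest, with 1813994 and 2889210 counts, and had the least muscle RNA (below). Arcuate ZT16 replicate 1, ZT4 replicate 3 and ZT22 replicate 1 stood apart in genes of neighbouring nuclei or myelin, also given below.

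Neurons and skeletal muscle give the markers used to check the tissue labels. Neurons release transmitter with a vesicle fusion machinery that includes SNAP-25, and neurons of the hypothalamus that use glutamate load it into vesicles with the transporter encoded by Slc17a6, which vagal sensory neurons use as well. Arcuate neurons that make agouti-related peptide and neuropeptide Y drive feeding, and those that make pro-opiomelanocortin restrain it. Vagal sensory neurons, whose cell bodies fill the nodose ganglion, carry signals from gut, liver, heart and lung to the brainstem and sit among satellite glia and myelinating Schwann cells. Skeletal muscle, marked here by the fast myosin heavy chain gene Myh4, belongs to neither tissue.

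The neuronal markers were high in arcuate but near 0 in the libraries labelled nodose, so these markers give no support to the label of a sensory ganglion. The labels were kept as given. Levels are given throughout as CPM, the usual count relative to the library total, here after scaling with TMM factors. Snap25 (chr2:136713453-136782428, GRCm38, protein-coding) had 820, 902 and 1100 CPM as its lowest, median and highest level in arcuate, and 4.14, 8.07 and 31.6 CPM in nodose. Slc17a6 (chr7:51622006-51671119) had 225, 288 and 379 CPM in arcuate and 0, 0.227 and 1.23 CPM in nodose, where it had 19 counts over all 12 libraries. Myh4 (chr11:67238029-67260446) had 0.12, 0.747 and 3.96 CPM in arcuate and 2080, 15700 and 43300 CPM in nodose. For all 3 genes the libraries of the 2 tissues did not overlap, and the nodose libraries carried the muscle marker at far higher levels than either neuronal marker.

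Tissue differences were tested in 17074 genes that passed a count minimum, with edgeR's quasi-likelihood test, the time point as a covariate and Benjamini-Hochberg adjustment over all of these genes. Differences are log2 fold changes of arcuate over nodose, so a positive value means higher in arcuate. At an adjusted p under 0.05, 7710 genes (45.2%) were higher in arcuate and 7505 (44%) higher in nodose, 89.1% in all, so a plain difference says little about any gene. Calls below therefore come from the same fit tested against a fold of 2 (edgeR's glmTreat, here the 2-fold test), which called 4128 genes (24.2%) higher in arcuate and 4192 (24.6%) higher in nodose. These percentages are the background for every list below. The balance moved with the scaling: the 2-fold test called 4596 genes higher in arcuate and 3816 in nodose without scaling factors, and 3778 and 4607 with upper quartile factors. The 12 arcuate libraries all lay above the 12 nodose libraries in 5387 genes (31.6%) and below them in 4549 (26.6%). Of the genes tested, 1345 passed the minimum in arcuate alone and 1652 in nodose alone. Such a gene entered the test through the tissue where it is high. That favours a call in that direction, although not every such gene was called. Among the 14035 genes that passed it in both tissues, 2911 (20.7%) were called higher in arcuate and 2737 (19.5%) higher in nodose. The median log2 fold change over all genes tested was 0.02 with TMM factors and -0.13 with upper quartile factors, and it was 0.2 without scaling factors. Differences of that size have no fixed direction.

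**Figure D1:**
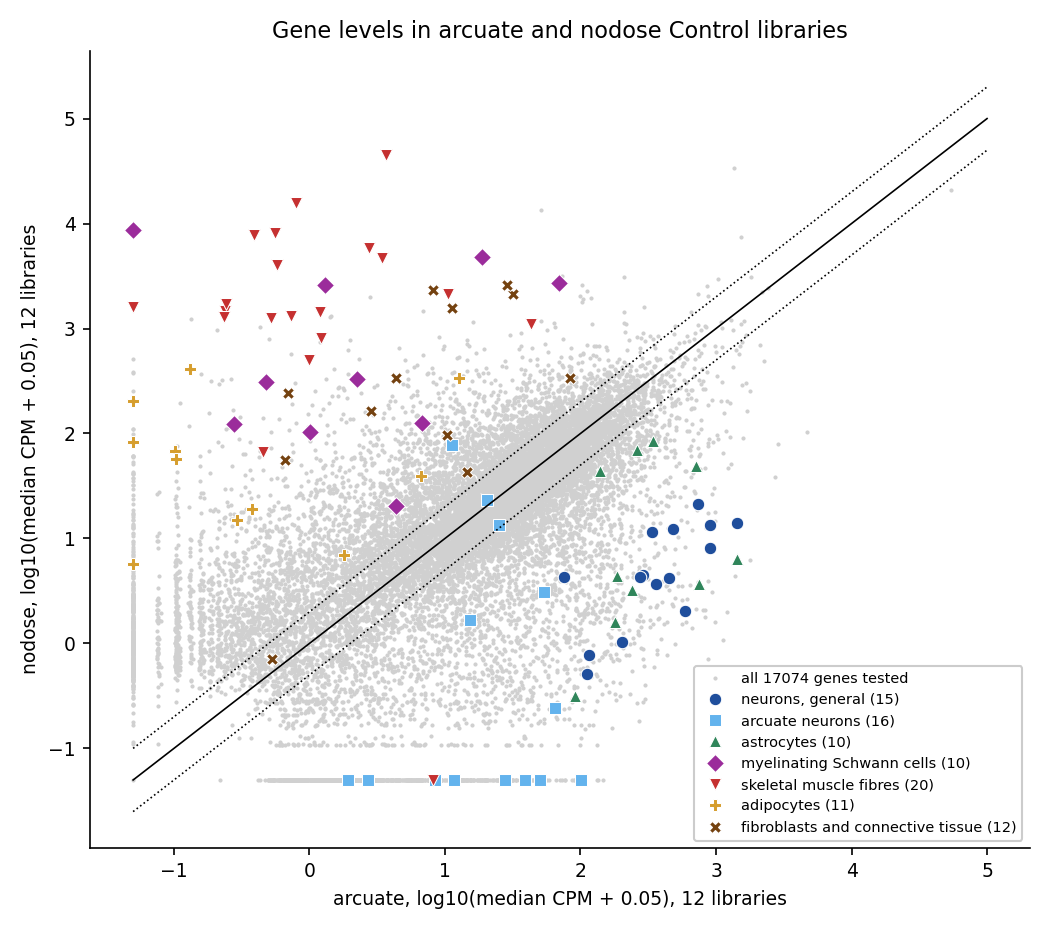
Median level of each of the 17074 genes tested in 12 arcuate (x axis) and 12 nodose (y axis) Control libraries, both as log10 of CPM plus 0.05. The solid line marks equal levels and the dotted lines a fold of 2. Coloured symbols are members of 7 marker lists. Neuron and astrocyte genes lie below the lines, except Lepr, Esr1 and Tbx3 of the arcuate neuron list. Schwann cell, muscle (except Myh7), adipocyte and most connective tissue genes lie above them.

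The most abundant messages named the main contents of each tissue. Levels of different genes are compared here as medians in CPM per kilobase of exon. Only the 24366 of 25229 symbols with an exon length could be ranked. The ribosomal RNA symbol Rn45s, with a median of 5.78% of arcuate counts, is not in this ranking. In arcuate the highest were Eef1a1 at 976 (a translation elongation factor), Sparcl1 at 770 (a secreted matrix protein of astrocytes), Nap1l5 at 752, Cst3 at 693 (cystatin C) and Cpe at 687 (carboxypeptidase E, which trims neuropeptide precursors). Among the highest in nodose were the nuclear RNA Malat1 at 4840, Acta1 at 3050 (skeletal muscle actin), Myh4 at 2610 and Tnnt3 at 2560 (fast troponin T). Of the 10 highest in nodose, 6 were skeletal muscle genes (Acta1, Myh4, Tnnt3, Atp2a1, Tnnc2 and Pvalb), 2 were RNAs that do not leave the nucleus as messages (Malat1 and Rpph1), and Pmp22, a peripheral myelin gene, was also among them. Eef1a1 was near equal in both tissues, with 976 in arcuate and 971 in nodose on the same scale. The 10 most abundant symbols of each library took 6.56 to 10.7% of the counts in arcuate and 13.3 to 31.3% in nodose.

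Genes with the largest fold in each direction, among those with a median of at least 50 CPM in the higher tissue, came from the same kinds of cell. Of the 12 highest in arcuate, 7 encode neuropeptide precursors (Hcrt, Avp, Pmch, Tac1, Cartpt, Pdyn and Sst), 1 is the oligodendrocyte transcription factor Olig1, 1 the hypothalamic transcription factor Otp and 1 the serotonin receptor Htr2c, beside Pnma3 and B230209E15Rik. Of the 12 highest in nodose, 10 are genes of the muscle fibre (Myh1, Tnnc2, Xirp2, Myh4, Ttn, Atp2a1, Mylk2, Myot, Ckm and Myl1) and 1 is Cfd, the adipocyte product adipsin.

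General neuronal genes were higher in arcuate without exception. All 15 members of the list were tested, all 15 passed the count minimum in both tissues, and 15 were called higher in arcuate and 0 in nodose (background 24.2% and 24.6%), with a median log2 fold change of 6.57 against 0.02 for all genes. Together they took 0.745 to 0.837% of counts in arcuate libraries and 0.00679 to 0.0217% in nodose libraries. Map2, a microtubule protein of dendrites, had 1260, 1420 and 1570 CPM (lowest, median, highest) in arcuate and 9.93, 14 and 24.9 in nodose, a log2 fold change of 6.6 (SE 0.122, adjusted p = 1.02e-24, edgeR 2-fold test). The vesicle calcium sensor Syt1 had a log2 fold change of 7.63 (SE 0.249), equal at this rounding to that of the RNA-binding protein gene Elavl3, and the smallest was that of neurofilament Nefm at 4.02 (SE 0.158). Nefm, a large-fibre axon protein, had 61.2, 75.8 and 112 CPM in arcuate and 2.91, 4.22 and 13.5 in nodose. In every member the lowest arcuate library lay above the highest nodose library.

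The extremes of the neuronal share among nodose libraries fell in the libraries at the opposite extremes of the muscle share. It was highest in nodose ZT4 replicate 1, at 0.0217% (95% Wilson interval 0.01968 to 0.02397%), and in ZT16 replicate 3, at 0.0157% (0.0143 to 0.01719%). These 2 libraries had the lowest muscle shares, at 4.06% and 1.95%. The lowest neuronal share, 0.00679%, was in ZT10 replicate 1, which had the highest muscle share, at 20.1%. Snap25 was also highest in the first 2 of these libraries, with 31.6 CPM in ZT4 replicate 1 and 15.3 CPM in ZT16 replicate 3, but it was lowest in ZT22 replicate 1, at 4.14 CPM, and had 8.01 CPM in ZT10 replicate 1. The part of muscle RNA in the neuronal levels was not tested beyond 1 measurement: with muscle, adipocyte and ribosomal RNA symbols left out of the library totals, the median neuronal share was 0.822% in arcuate and 0.0115% in nodose, and it was 0.773% and 0.0102% with them.

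Transmitter genes were higher in arcuate too. All 6 were called higher in arcuate, but only 2 passed the count minimum in both tissues, and the other 4 entered the test through arcuate. Gad2, which makes GABA, had 348, 411 and 506 CPM in arcuate and 0.299, 1.49 and 7.78 in nodose. The vesicular GABA transporter Slc32a1 had 105, 133 and 163 CPM in arcuate and 0, 0.0572 and 1.56 in nodose. Slc17a6 gave the largest log2 fold change, 9.98 (SE 0.188), and is 1 of the 4 that entered the test through arcuate. Slc17a7, the glutamate transporter of cortical neurons, was low in both, and here the libraries overlapped. It had 0.542, 1.6 and 6.69 CPM in arcuate and 0, 0.396 and 1.91 in nodose. Its call was lost in 1 of 35 alternatives.

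Genes of the synapse followed the neuronal list. Of 16 members, all past the minimum in both tissues, 15 were called higher in arcuate and 0 in nodose, with a median log2 fold change of 4.28. The synaptic vesicle protein gene Sv2a had the largest difference, with 589, 598 and 636 CPM in arcuate and 0.329, 1.55 and 5.7 in nodose (log2 fold change 8.53, SE 0.182). Homer1, a scaffold of the postsynaptic density that skeletal muscle also makes, was the exception, with 28.3, 32.3 and 38.2 CPM in arcuate and 26.1, 51.9 and 101 in nodose, and it was not called (log2 fold change -0.79, SE 0.163, adjusted p = 1, edgeR 2-fold test).

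Voltage-gated sodium channel genes were mostly higher in arcuate. Of 9 tested, 7 past the minimum in both tissues, 7 were called higher in arcuate and 2 in nodose. Scn1a, a channel of central neurons, had 125, 140 and 216 CPM in arcuate and 0.355, 1.55 and 5.18 in nodose. Scn9a and Scn11a, channels known from peripheral sensory neurons, were higher in arcuate as well, with 66.2, 77.2 and 96.3 CPM against 0.521, 1.16 and 2.8 for Scn9a and 1.15, 1.74 and 3.35 CPM against 0, 0.479 and 1.03 for Scn11a. The 2 higher in nodose were Scn4a, the channel of skeletal muscle, with 24.9, 197 and 486 CPM against at most 0.361 in arcuate, and Scn7a, a channel of Schwann cells and sensory ganglia, with 260, 319 and 469 CPM against 37.3, 45.4 and 52.3. Scn10a, the channel that defines many vagal and other pain-sensing neurons, was too low to be tested, with 20 counts over the arcuate libraries and 10 over the nodose libraries.

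Of the 22 vagal sensory neuron genes, 18 were tested, 9 of them past the count minimum in both tissues. Of the 18, 14 were called higher in arcuate and 4 in nodose. Of the 14, 8 passed the minimum in arcuate alone, which favours such a call. Among the 9 past it in both tissues, 6 were called higher in arcuate and 3 in nodose (background 20.7% and 19.5%). The list took 0.136 to 0.162% of counts in arcuate and 0.0119 to 0.0272% in nodose. Most of the arcuate share came from 1 member, Ntrk2, which astrocytes also make: without it, an alternative chosen after seeing the data, the shares were 0.0187 to 0.0254% (median 0.0219%) and 0.00561 to 0.0133% (median 0.00969%), still without overlap. Members left untested for low counts include genes particular to these neurons. Phox2a, a transcription factor of visceral neurons, had 11 counts over the 12 arcuate libraries and 5 over the 12 nodose libraries, of 74025759 nodose counts in all. In the same order, Scn10a had 20 and 10 counts and the calcitonin peptide gene Calcb 36 and 2. A level of 3 counts over all nodose libraries would be 0.0434 CPM, so these genes were at or near the lowest level that this depth can show.

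Receptors through which vagal neurons sense hormones and other signals from the body were also low or listed at 0 in most nodose libraries. Glp1r, the GLP-1 receptor, had 5.14, 5.89 and 8 CPM in arcuate and 2 counts over all nodose libraries, a ratio of 215 (95% counting interval 59.3 to 1770). Cckar, the cholecystokinin receptor, had 5.57, 7.4 and 9.67 CPM in arcuate and 2 counts in nodose, a ratio of 256 (70.9 to 2120). Npy2r, a receptor of peptide YY, had 27, 36.7 and 40 CPM in arcuate and 1 count in nodose. All 3 are also made by hypothalamic neurons. P2rx3, the ATP-gated channel of nodose neurons, had 1.34, 2.58 and 3.2 CPM in arcuate and 0.225, 0.703 and 1.32 in nodose, and the transcription factor Isl1 had 23.8, 33.5 and 38.5 CPM against at most 1.56, with 8 counts in all. The receptor of brain-derived neurotrophic factor, Ntrk2, which astrocytes make as well, was the most abundant member, with 1100, 1190 and 1290 CPM in arcuate and 79.7, 105 and 131 in nodose.

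The 4 members called higher in nodose differed in strength. Piezo2, a stretch-activated channel of sensory neurons, had 53.4, 78.1 and 104 CPM in nodose and 1.57, 2.26 and 3.66 in arcuate, so no library overlapped (log2 fold change -4.96, SE 0.101, adjusted p = 2.38e-23, edgeR 2-fold test). Avil, an actin-binding protein of sensory neurons, had 4.67, 6.64 and 9.8 CPM in nodose and 1.78, 2.45 and 4.65 in arcuate (log2 fold change -1.35). Gpr65, an acid-sensing receptor that immune cells also make, had 1.05, 2.07 and 3 CPM in nodose and 0.0542, 0.381 and 0.791 in arcuate. Trpv1, the capsaicin receptor, had 0.429, 1.49 and 2.67 CPM in nodose and 0.211, 0.376 and 1.52 in arcuate, with overlap (log2 fold change -1.52, SE 0.335, adjusted p = 0.0363, edgeR 2-fold test), and its call was lost in 11 of 36 alternative analyses. The call of Avil was lost in 2 of 36.

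The HepDKO libraries, which share no sample with these, also held few counts of vagal markers. Over their 12 nodose libraries, with 77783697 counts, Phox2a had 5 counts, Scn10a 7, Glp1r 1, Cckar 2 and Isl1 5, whereas Piezo2 had 5236 and Myh4 1297411.

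**Figure D2:**
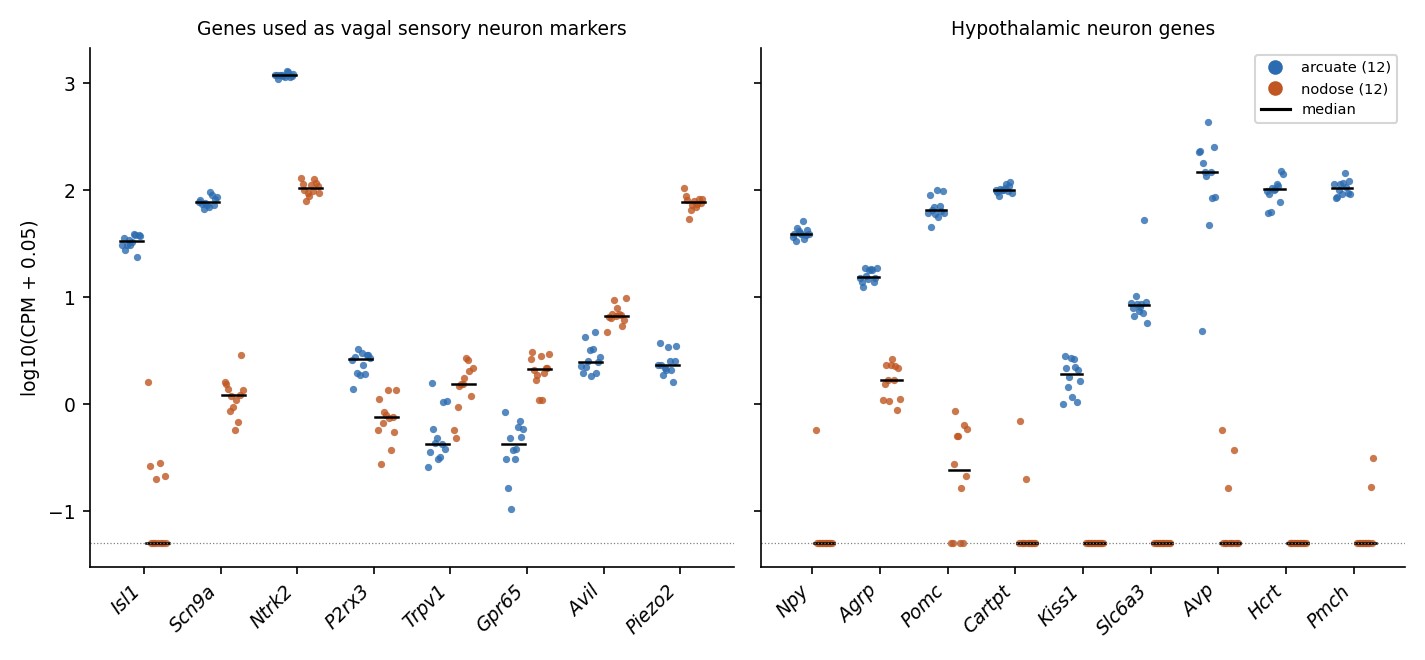
Level of 8 genes used as vagal sensory neuron markers (left) and 9 hypothalamic neuron genes (right) in each of 12 arcuate and 12 nodose Control libraries, as log10 of CPM plus 0.05, with a bar at each median. The dotted line marks 0 CPM. Of the vagal markers shown, Isl1, Scn9a, Ntrk2 and P2rx3 are higher in arcuate and Trpv1, Gpr65, Avil and Piezo2 higher in nodose. The hypothalamic genes are near or at 0 in nodose, apart from low levels of Agrp and Pomc.

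The arcuate libraries held the genes of the feeding circuits. Of 16 arcuate neuron genes tested, 13 were called higher in arcuate and 1 in nodose, with a median log2 fold change of 7.3, or 7.04 when 2 genes with no nodose counts were set to their lower bound. Only 5 of the 16 passed the count minimum in both tissues, and of these 2 were called higher in arcuate and 1 in nodose. The other 11 entered the test through 1 tissue, which favours a call, so the count and the median are descriptions. Agrp, the hunger peptide, had 12.4, 15.2 and 18.8 CPM in arcuate and 0.828, 1.63 and 2.61 in nodose. Npy, its partner, had 33.6, 38.7 and 51.4 CPM in arcuate and 1 count over all nodose libraries. Agrp thus had 116 nodose counts where Npy had 1. In the GENCODE annotation Agrp has a long gene model (chr8:105566698-105637393) that overlaps other genes, among them Ripor1 on the opposite strand, and how the counting treated overlaps and strand is not given in the sources used here.

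Pomc (chr12:3954951-3960642), the precursor of the satiety peptide alpha-MSH, had 45.5, 64.7 and 101 CPM in arcuate and 0, 0.195 and 0.822 in nodose. Cartpt, a peptide made with it, had 88.9, 100 and 120 CPM in arcuate and 4 counts in nodose, and was the most abundant member. Kiss1, the reproductive peptide of arcuate neurons, had 0.949, 1.88 and 2.74 CPM in arcuate and 0 counts in nodose, which makes it at least 42.4-fold higher in arcuate against a floor of 3 counts over the group. Slc6a3, the dopamine transporter, was also at 0 in nodose and at least 265-fold higher in arcuate. It had 5.74, 8.39 and 52.2 CPM, and its highest value came from arcuate ZT22 replicate 1. The dopamine-making enzyme Th had 28.2, 39.1 and 54.8 CPM in arcuate and 4 counts in nodose.

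Hormone receptors on the same list went in both directions. Ghsr, the ghrelin receptor, had 9.4, 11.6 and 14.5 CPM in arcuate and at most 0.355 in nodose, and Prlr, the prolactin receptor, had 46.4, 53.4 and 61 CPM against 1.8, 3.01 and 6.06, both without overlap. The leptin receptor gene Lepr was the member higher in nodose, with 50.6, 76.9 and 102 CPM there and 8.89, 11.3 and 15.5 in arcuate (log2 fold change -2.7, SE 0.109, adjusted p = 7.45e-15, edgeR 2-fold test). Lepr is also made by cells of vessels and connective tissue. The oestrogen receptor gene Esr1 had 15.9, 20.5 and 27 CPM in arcuate and 8.3, 23.1 and 48.7 in nodose, and the transcription factor gene Tbx3 had 17.4, 25.1 and 31.2 against 8.81, 13.4 and 36. Neither passed the 2-fold test, and the libraries of both tissues overlapped in each.

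Genes of neighbouring hypothalamic nuclei were present in the arcuate libraries too. All 10 were called higher in arcuate, and none passed the count minimum in nodose, so each entered the test through arcuate. Hcrt and Pmch, the peptides of lateral hypothalamic neurons that promote wakefulness and feeding, had 61, 101 and 151 CPM and 83.8, 104 and 145 CPM in arcuate. Hcrt had 0 counts in nodose, and was at least 2310-fold higher in arcuate. Pmch had 2 counts, a ratio of 3660 (95% counting interval 1010 to 30200). The ventromedial genes Nr5a1 and Fezf1 had 10.3, 21.6 and 41.8 CPM and 10.7, 27.8 and 46.9 CPM.

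Peptides of the paraventricular, supraoptic and suprachiasmatic nuclei varied widely between arcuate pools. Avp (vasopressin) had 4.78, 148 and 438 CPM and Oxt (oxytocin) 12.4, 90 and 306 CPM over the 12 arcuate libraries. The highest values of both came from ZT16 replicate 1 and the lowest from ZT4 replicate 3. The same 2 libraries gave the highest and lowest Nr5a1, and ZT16 replicate 1 also gave the highest Vip, 18.7 CPM against a median of 1.14. Agrp and Npy spanned a far narrower range over the same libraries, as given above. Avp remained called with each library left out in turn, with log2 fold changes of 9.87 to 12.04 over all alternatives, and was lost only with limma-voom weights (adjusted p = 0.0763).

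Pituitary genes were present at low levels in arcuate. Of 6 tested, 2 past the minimum in both tissues, 5 were called higher in arcuate and 1, Pitx1, higher in nodose. Cga, the shared subunit of pituitary glycoprotein hormones, had 4.23, 9.33 and 13.5 CPM in arcuate and 0 counts in nodose, and was at least 212-fold higher in arcuate. Gh, Prl and Pou1f1, which define the hormone cells of the anterior pituitary, had 36, 10 and 2 counts over all arcuate libraries and were not tested. The nodose call of Pitx1, a hindlimb and pituitary transcription factor, had an adjusted p of 0.0484 by the edgeR 2-fold test and was lost in 24 of 36 alternatives.

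Transcription factors of regional identity had opposite levels for forebrain and trunk genes. All 12 forebrain and hypothalamic factors were called higher in arcuate, but 8 of them passed the count minimum in arcuate alone, which favours such a call. Of those past it in both tissues, 4 of 4 were called. The list had a median log2 fold change of 8.72, or 6.68 with the 4 genes at 0 in nodose set to their lower bounds. Nkx2-1, which specifies the ventral hypothalamus, had 31.3, 41 and 44.3 CPM in arcuate and 1 count in nodose. Six6 had 6.75, 10.4 and 22.4 CPM and 0 counts. Hox genes mark the hindbrain, spinal cord and trunk. Of 39 Hox symbols, 4 were tested, and all 4 were called higher in nodose. But 0 of them passed the minimum in arcuate, so each entered the test through nodose. Hoxd4 had 1.91, 3.63 and 5.69 CPM in nodose and 0 counts in arcuate, at least 276-fold higher in nodose. Of the 39, 22 were at 0 in every arcuate library and 18 at 0 in every nodose library.

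Astrocyte genes were an arcuate feature. All 10 were called higher in arcuate, 9 of them past the minimum in both tissues, and they took 0.433 to 0.503% of counts there and 0.0201 to 0.0326% in nodose. The glutamate transporter gene Slc1a2 had 1210, 1420 and 1660 CPM in arcuate and 3.29, 6.39 and 10.3 in nodose. The gap junction gene Gjb6 had the largest difference, at 8.04 (SE 0.148). The filament gene Gfap had 144, 179 and 247 CPM in arcuate and 0.644, 1.55 and 6.74 in nodose, so nodose libraries also held little of it although satellite glia can make it. The water channel gene Aqp4, which fast muscle also makes, had the smallest difference, and here the libraries overlapped. It had 122, 140 and 168 CPM in arcuate and 6.7, 43.8 and 143 in nodose. Its call was lost in 1 of 36 alternatives.

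Most genes of the cells that line the ventricle were higher in arcuate. Of 9 tanycyte and ependymal genes, 7 were called higher in arcuate and 1 in nodose, but only 4 passed the minimum in both tissues, of which 2 were called higher in arcuate and 1 in nodose. Gpr50, an orphan receptor of tanycytes, had 27.2, 40.6 and 50.1 CPM in arcuate and 2 counts in nodose. Rax, a factor of the embryonic hypothalamus kept in tanycytes, had 2.8, 5.2 and 7.64 CPM and 0 counts, at least 120-fold higher in arcuate. The cilia factor Foxj1 had 16.7, 26.1 and 35.4 CPM in arcuate and at most 0.957 in nodose. Nes, a filament gene of tanycytes and of progenitors, Schwann cells and muscle, was the member called higher in nodose. It had 264, 375 and 537 CPM there against 16.3, 20.7 and 38.9. Summed, the list went the other way, with 0.0181 to 0.0244% of counts in arcuate and 0.0319 to 0.0729% in nodose. Nes was its most abundant member in nodose. Among 4 choroid plexus genes only Kcnj13 was called, higher in nodose, and Ttr was low in both, with 1.14, 3.78 and 12.7 CPM in arcuate and 1.12, 2.12 and 8.16 in nodose.

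Myelin had a different composition in each tissue. In the central nervous system it is made by oligodendrocytes and in peripheral nerve by Schwann cells, which share part of their proteins. Of 10 oligodendrocyte lineage genes, 9 were called higher in arcuate and 0 in nodose, with 3 of the 10 past the minimum in both tissues. Mobp, a protein of central myelin, had 369, 558 and 875 CPM in arcuate and 1.42, 2.57 and 5.18 in nodose, its highest value again in arcuate ZT22 replicate 1. The lineage factor Olig1 had 96, 109 and 118 CPM in arcuate and 4 counts in nodose. Gpr17, a receptor of immature oligodendrocytes, differed least among those called, with 51.8, 64 and 81.4 CPM against 21, 23.3 and 32.2. Sox8 was not called, with 32.8, 35.4 and 39.9 CPM in arcuate and 17.1, 30.8 and 46.1 in nodose.

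Myelinating Schwann cell genes were all higher in nodose. Of 10 tested, 8 past the minimum in both tissues, 10 were called higher in nodose (background 24.6%) and 0 in arcuate, with a median log2 fold change of -7.71, and in all 10 the lowest nodose library lay above the highest arcuate library. Prx, which anchors the myelin sheath, had 2020, 2600 and 4340 CPM in nodose and 0.805, 1.26 and 1.7 in arcuate (log2 fold change -11.17, SE 0.204, adjusted p = 4.57e-24, edgeR 2-fold test). Egr2, the factor that turns on Schwann cell myelination, had 50.8, 104 and 182 CPM against 0.651, 0.962 and 1.85. Pou3f1, an earlier factor that neurons also make, differed least, with 10.8, 20.3 and 31.1 CPM against 3.09, 4.28 and 5.99.

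Of 6 myelin genes that both cell types use, 4 were called higher in nodose and 0 in arcuate. Mbp, myelin basic protein, had 5360, 7450 and 11800 CPM in nodose and 1070, 1530 and 2010 in arcuate. Sox10, the factor of both lineages, had 91.6, 150 and 276 CPM in nodose and 25, 30.6 and 43.9 in arcuate. Mag, an adhesion protein of both myelins, had 71.7, 96 and 154 CPM in nodose and 80.2, 122 and 145 in arcuate. Mag did not pass the 2-fold test, and its sign was not fixed (0.14 with TMM and -0.02 with upper quartile factors).

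Markers of satellite glia and non-myelinating Schwann cells were divided. Of 9 tested, 7 past the minimum in both tissues, 6 were called higher in nodose and 3 in arcuate. Foxd3, a neural crest factor, had 12.9, 17.1 and 27.6 CPM in nodose and 0 counts in arcuate, at least 1300-fold higher in nodose. The cadherin gene Cdh19 had 141, 182 and 243 CPM in nodose and 7.2, 10.8 and 19.9 in arcuate. Kcnj10, the potassium channel of satellite glia and of astrocytes, was higher in arcuate, with 380, 418 and 454 CPM against 4.77, 7.87 and 12, and so were the lipid carrier gene Fabp7, with 11.8, 19.5 and 43.2 CPM against at most 1.07, and L1cam.

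**Figure D3:**
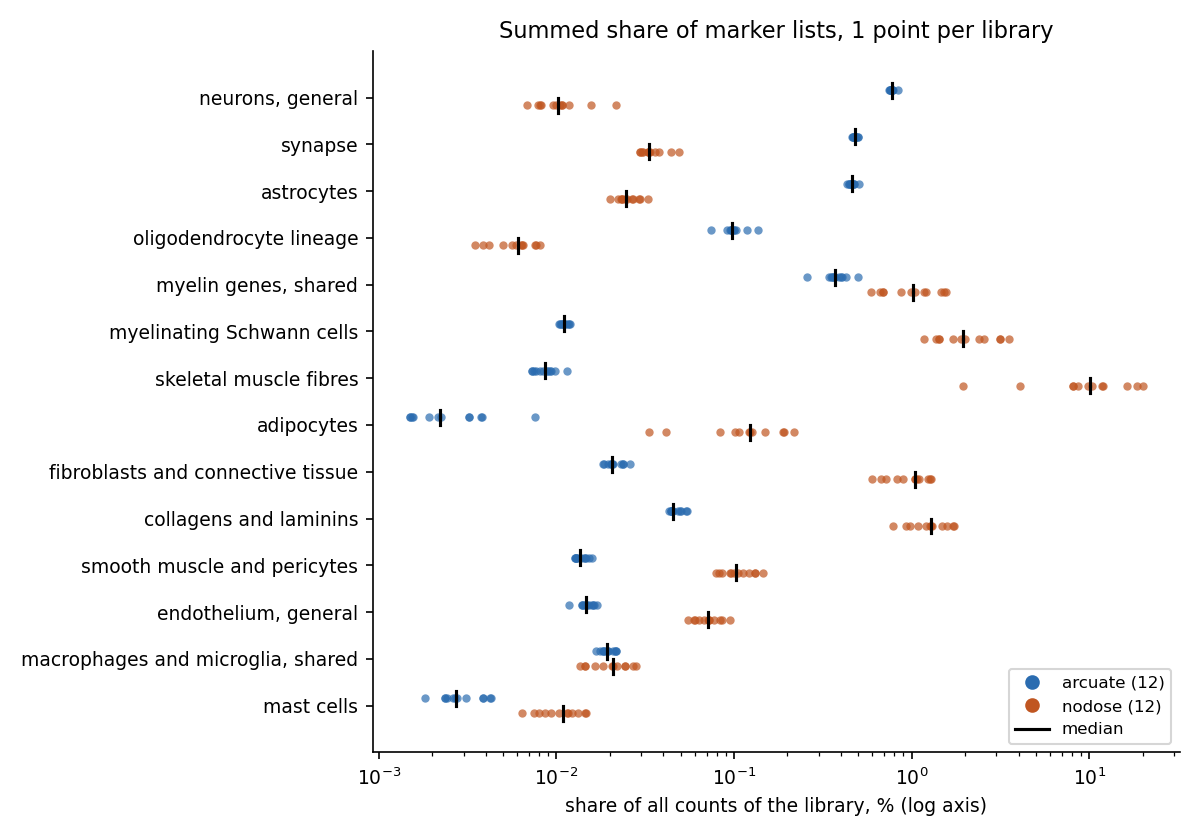
Summed share of counts of 14 gene lists in each library, on a log axis in percent, for 12 arcuate and 12 nodose Control libraries, with a bar at each median. Muscle fibre genes span 1.95 to 20.1% of nodose counts and 0.00726 to 0.0115% of arcuate counts, and general neuronal genes 0.00679 to 0.0217% of nodose counts and 0.745 to 0.837% of arcuate counts. The list shared by macrophages and microglia overlaps between the tissues.

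Skeletal muscle had a higher median share of nodose counts than any other list of cell markers used here. Of 20 muscle fibre genes tested, 19 were called higher in nodose and 1 in arcuate, with a median log2 fold change of -11.34, and 13 of the 20 passed the minimum in both tissues. In nodose libraries they took 1.95 to 20.1% of all counts (median 10.1%), and in arcuate libraries 0.00726 to 0.0115%. Ttn (chr2:76703980-76982547), the giant elastic protein of the sarcomere, had 9340, 44600 and 101000 CPM in nodose and 2.23, 3.65 and 7.17 in arcuate. Acta1 (chr8:123891769-123894751) had 719, 4680 and 11400 CPM in nodose and 2.8, 3.4 and 5.33 in arcuate. The calcium pump gene of fast fibres, Atp2a1, had 1150, 8110 and 19000 CPM against 0.248, 0.511 and 1.79. None of these overlapped between tissues.

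The fibre type was fast. The genes of fast myosins 4 and 1 had medians of 15700 and 7720 CPM in nodose, and Myh2, the fast oxidative form, had 13.7, 66 and 510. Myh7, the slow form, had 0, 0 and 7.42 CPM in nodose and 6.13, 8.14 and 9.43 in arcuate, and was the single member called higher in arcuate (log2 fold change 3, SE 0.509). It passed the count minimum in arcuate alone, which favours such a call. The 13 members past it in both tissues were all called higher in nodose. The myosin genes are close in sequence, and how reads that match several of them were counted is not given in the sources used here. Regulators of the muscle lineage were present at low levels. Of 6 tested, 5 were called higher in nodose and 0 in arcuate, with 2 past the minimum in both tissues. Myf6, the regulator of mature fibres, had 1.91, 15.9 and 44.2 CPM in nodose and 2 counts in arcuate, and Myod1 had 0.638, 6.5 and 15.1 CPM and 2 counts. Pax7, the factor of muscle stem cells, was not called, with 0, 0.352 and 2.18 CPM in nodose and 0.641, 1.18 and 1.92 in arcuate.

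The sequence before the start of transcription is shown for genes at both ends of the comparison, as 250 bases of the RefSeq promoter table (GRCm38.p6): the fast muscle genes Myh4 (chr11:67237562-67237811, plus strand), Acta1 (chr8:123894776-123895025, minus strand) and Ckm (chr7:19410844-19411093, plus strand), and the hypothalamic peptide genes Hcrt (chr11:100762932-100763181, minus strand) and Npy (chr6:49822460-49822709, plus strand). Capitals mark TATAAA, a form of the TATA box, CAGCTG, an E-box of the kind bound by basic helix-loop-helix factors such as MyoD, and GGGCGG, a GC box, each searched on both strands, so that TTTATA and CCGCCC are capitals as well. The motifs do not overlap one another.
Myh4: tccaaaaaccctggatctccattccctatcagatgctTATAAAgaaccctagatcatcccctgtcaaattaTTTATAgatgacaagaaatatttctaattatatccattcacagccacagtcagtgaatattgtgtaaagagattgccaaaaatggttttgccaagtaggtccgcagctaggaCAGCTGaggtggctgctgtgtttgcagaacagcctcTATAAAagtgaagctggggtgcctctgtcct
Acta1: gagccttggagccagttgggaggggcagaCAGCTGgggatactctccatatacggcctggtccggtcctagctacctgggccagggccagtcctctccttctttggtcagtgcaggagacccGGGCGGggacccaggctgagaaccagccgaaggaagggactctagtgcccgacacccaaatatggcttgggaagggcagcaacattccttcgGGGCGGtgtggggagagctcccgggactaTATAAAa
Ckm: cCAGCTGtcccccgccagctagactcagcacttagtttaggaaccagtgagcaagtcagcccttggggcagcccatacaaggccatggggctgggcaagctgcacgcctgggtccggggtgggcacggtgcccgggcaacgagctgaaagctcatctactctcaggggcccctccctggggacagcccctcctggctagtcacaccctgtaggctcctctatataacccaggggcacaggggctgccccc
Hcrt: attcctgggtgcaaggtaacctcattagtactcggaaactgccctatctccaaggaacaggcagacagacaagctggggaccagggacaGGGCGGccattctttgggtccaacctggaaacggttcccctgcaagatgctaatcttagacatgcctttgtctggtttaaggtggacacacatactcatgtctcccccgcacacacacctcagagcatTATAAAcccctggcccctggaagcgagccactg
Npy: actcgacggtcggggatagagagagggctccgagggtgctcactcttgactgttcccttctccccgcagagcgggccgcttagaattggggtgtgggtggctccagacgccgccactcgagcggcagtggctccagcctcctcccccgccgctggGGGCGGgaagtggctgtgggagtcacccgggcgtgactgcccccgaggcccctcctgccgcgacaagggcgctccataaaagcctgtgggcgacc
Each of the 3 muscle genes shown has 1 CAGCTG in this window, as does the fat gene Adipoq (not shown), and neither peptide gene has any, whereas GGGCGG is present in Acta1, Hcrt and Npy. Over windows of 300 bases (250 before to 50 after the start), CAGCTG was found in 8 of the 16 muscle fibre genes in the table (50%), in 1 of 10 general neuronal genes (10%), in 1 of 14 arcuate neuron genes (7.14%) and in 16.1% of all 27025 promoters. TATAAA was found in 31.2, 20 and 14.3% of the same lists and 14.2% of all promoters, and GGGCGG in 31.2, 50 and 42.9% and 35.9%. The lists are small and a match is a description of the letters only.

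Enzymes with separate muscle and brain forms followed the tissues. Of 8 muscle-type forms, 6 were called higher in nodose and 0 in arcuate, with 5 of the 7 past the minimum in both tissues called. Of 8 brain-type or general forms, all past it in both, 7 were called higher in arcuate and 0 in nodose. Muscle creatine kinase, Ckm, had 205, 1480 and 4190 CPM in nodose and 0.054, 0.188 and 0.475 in arcuate (log2 fold change -13.07, SE 0.533). It passed the minimum in nodose alone, which favours such a call. The brain form, Ckb, had 655, 757 and 810 CPM in arcuate and 31.8, 45.6 and 77.8 in nodose (log2 fold change 3.9, SE 0.111). Neither pair of ranges overlapped.

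The other isozyme pairs behaved alike to differing degrees. For enolase, neuronal Eno2 had a log2 fold change of 5.18, general Eno1 of 1.94 and muscle Eno3 of -6.67. For phosphoglycerate mutase, Pgam1 had 3.01 and muscle Pgam2 -7.46. For glycogen phosphorylase, Pygb had 1.69 and muscle Pygm -4.74, and for hexokinase, Hk1 had 1.66 and Hk2 -5.15. For aldolase, astrocytic Aldoc had 7.7 and Aldoa -1.51, the latter with overlap and an adjusted p of 0.0104 by the edgeR 2-fold test, lost with limma-voom (0.113). Lactate dehydrogenase differed least, with Ldhb at 0.47 and Ldha at -1.19, and neither passed the 2-fold test, nor did Pfkm at -1.27. Ldha passed it in 2 of 36 alternatives and Pfkm in 3 of 36.

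Adipocyte genes were higher in nodose and varied between its libraries. All 11 were called higher in nodose and 0 in arcuate, with a median log2 fold change of -8.74, and 3 of the 11 passed the minimum in both tissues. Adipoq (chr16:23146536-23158028), the fat hormone adiponectin, had 15.6, 82.9 and 206 CPM in nodose and 0, 0 and 0.281 in arcuate. The fatty acid carrier Fabp4 had 91.8, 412 and 1090 CPM in nodose and 0, 0.0807 and 0.31 in arcuate. Cfd had 46.7, 206 and 396 CPM and 3 arcuate counts, a ratio of 16200 (95% counting interval 5530 to 78400). Leptin, Lep, had 1.81, 5.69 and 15 CPM and 1 arcuate count. The adipocyte share of counts ran from 0.0331% in nodose ZT4 replicate 1 to 0.217% in ZT10 replicate 2, and was 0.00149 to 0.00755% in arcuate.

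Genes of brown fat were less uniform. Of 5, 4 were called higher in nodose and 0 in arcuate, and of the 2 past the minimum in both tissues 1 was called. Ucp1, which makes heat in brown fat, had 0, 2.05 and 157 CPM in nodose and at most 0.175 in arcuate, and its highest value came from nodose ZT10 replicate 1, with 46.7, 35.7 and 28.3 CPM in ZT4 replicate 3, ZT10 replicate 2 and ZT10 replicate 3 and at most 8.29 in the others. Cox8b, a respiratory chain subunit of brown fat and muscle, had 22.3, 76.5 and 196 CPM in nodose and at most 0.254 in arcuate. Ppargc1a, the mitochondrial coactivator, was not called, with 39.9, 56 and 138 CPM in nodose and 34.1, 40 and 51.5 in arcuate.

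Connective tissue genes varied less than muscle and fat genes between nodose libraries. Of 12 fibroblast genes, 11 past the minimum in both tissues, 11 were called higher in nodose and 0 in arcuate, with a median log2 fold change of -6.16. Their share was 0.595 to 1.29% in nodose and 0.0182 to 0.026% in arcuate. Dcn, the collagen-binding decorin and most abundant member, had 2090, 2580 and 3300 CPM in nodose and 22.2, 28.7 and 38.2 in arcuate. The microfibril gene Mfap5 had 182, 243 and 281 CPM against 0.124, 0.651 and 1.03. Tnmd, a tendon gene, was not called, with 0, 0.663 and 1.86 CPM in nodose and 0.164, 0.476 and 0.991 in arcuate.

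All 19 collagen and laminin genes were called higher in nodose, and all 19 passed the minimum in both tissues. Col3a1 had 1760, 2340 and 3670 CPM in nodose and 6.17, 8.13 and 15.8 in arcuate, and Col1a1 (chr11:94936224-94953042) had 1100, 1570 and 2610 against 9.67, 11.3 and 18.3. Lama2, the laminin of muscle and Schwann cell basement membranes, had 483, 587 and 742 CPM against 14.7, 16.8 and 18.6. The smallest difference was that of Col12a1, at -2.44 (SE 0.122). Perineurium, the cell sheath around nerve bundles, left its mark too. Its claudin gene Cldn1 had 153, 227 and 293 CPM in nodose and 1.03, 1.59 and 1.92 in arcuate, and Itgb4 had 453, 682 and 783 against 4.71, 9.72 and 11.6. The third gene of that list, the glucose transporter Slc2a1, which brain vessels also make, had 74.4, 118 and 189 CPM in nodose and 79.2, 99.9 and 197 in arcuate and was not called.

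**Figure D4:**
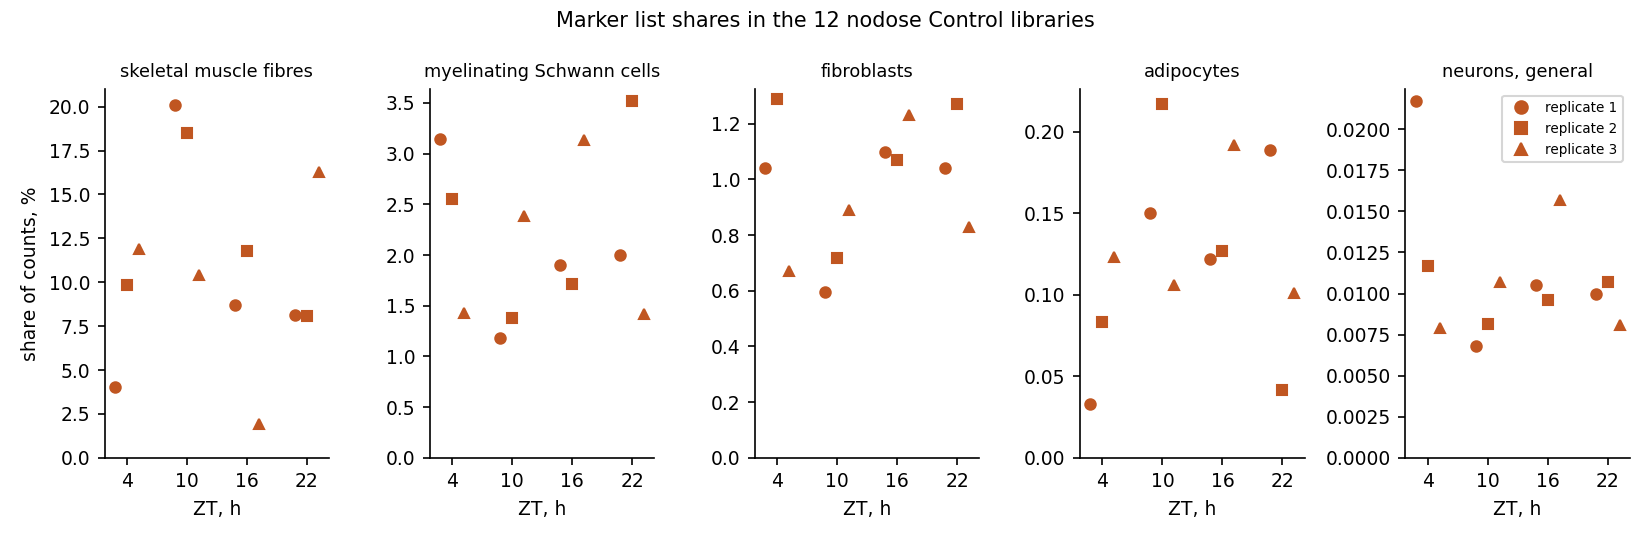
Share of counts, in percent, of 5 gene lists in the 12 nodose Control libraries by time (x axis, ZT in hours), with a symbol for each replicate number. The libraries with the lowest muscle share, ZT16 replicate 3 at 1.95% and ZT4 replicate 1 at 4.06%, have the highest neuronal shares, 0.0157% and 0.0217%. The library with the highest muscle share, ZT10 replicate 1 at 20.1%, has the lowest Schwann cell, fibroblast and neuronal shares.

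The nodose libraries differed in their mixture. Muscle share ran over a 10-fold range, from 1.95% (95% Wilson interval 1.938 to 1.97%) in ZT16 replicate 3 to 20.1% (20.02 to 20.08%) in ZT10 replicate 1. Schwann cell share was lowest, 1.18%, in ZT10 replicate 1, and was 3.14% and 3.13% in the 2 libraries with least muscle, below only the 3.52% of ZT22 replicate 2. Replicates of 1 time point differed as much as time points did. At ZT10 the 3 muscle shares were 20.1, 18.5 and 10.4%, and at ZT16 they were 8.69, 11.8 and 1.95%. In the HepDKO nodose libraries the muscle share was 8.72 to 17.7% with a median of 13%, and the general neuronal share 0.0076 to 0.0129%.

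Vessel genes were mostly higher in nodose. All 8 smooth muscle and pericyte genes and all 8 general endothelial genes were called higher in nodose, and all 16 passed the minimum in both tissues. Myh11, the smooth muscle myosin, had 121, 192 and 437 CPM in nodose and 5.68, 7.67 and 11.8 in arcuate. The endothelial cadherin gene Cdh5 had 149, 202 and 226 CPM against 7.86, 11.9 and 15.2, and Pecam1 had 96, 167 and 263 against 14.9, 16.4 and 30.2. Of 4 lymphatic genes, 3 were tested and all 3 were called higher in nodose, among them Lyve1 with 11.4, 24 and 58.9 CPM against 0.225, 0.849 and 1.78.

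Genes of the blood-brain barrier went in both directions. At an adjusted p under 0.05 in the plain edgeR quasi-likelihood test, 3 were higher in arcuate and 2 in nodose. All 5 passed the minimum in both tissues. By the 2-fold test 1 was called higher in arcuate and 0 in nodose (background 20.7% and 19.5%). That gene was Slco1c1, the thyroid hormone transporter of brain vessels and astrocytes, with 26.1, 33.3 and 39.5 CPM in arcuate and 0.458, 1.49 and 2.87 in nodose. The tight junction gene Cldn5 had 11.6, 22.2 and 29.9 CPM in arcuate and 8.22, 17.3 and 22.8 in nodose. The efflux pump gene Abcb1a had 30.8, 35 and 42 CPM in arcuate and 60.3, 72.4 and 96.6 in nodose without overlap. Its log2 fold change of -1.07 did not pass the 2-fold test (adjusted p = 0.0819, edgeR), but passed it in 4 of 36 alternatives.

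Macrophage genes shared with microglia had no call by the 2-fold test. Of 7, all past the minimum in both tissues, 0 were called in either direction by the 2-fold test, although 1 was higher in arcuate and 5 in nodose at an adjusted p under 0.05 in the plain edgeR quasi-likelihood test (background 45.2% and 44%). Their share was 0.0166 to 0.0217% in arcuate and 0.0136 to 0.0279% in nodose. Csf1r, the growth factor receptor of these cells, had 55.2, 63.4 and 68.4 CPM in arcuate and 67.8, 77.1 and 110 in nodose, and C1qa had 21.8, 24.3 and 28.7 against 25.7, 31.7 and 47.2.

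Genes that separate brain microglia from other macrophages were for the most part not called. Of 6 microglial genes, 2 were called higher in arcuate by the 2-fold test and 0 in nodose, a share near the background of 24.2%, and of the 5 past the minimum in both tissues 1 was called. Sall1, the microglial identity factor, had 17.6, 19.8 and 26.7 CPM in arcuate and 4 counts in nodose. Siglech had 8.9, 10.1 and 12.6 CPM against 1.35, 2.27 and 4.72. Tmem119, another microglial marker, was not called, with 11.2, 12.5 and 15.6 CPM in arcuate and 5.15, 9.79 and 16.2 in nodose, and P2ry12 was not either. All 5 peripheral macrophage genes were called higher in nodose, 3 of them past the minimum in both tissues. Mrc1 had 71.5, 100 and 144 CPM there and 2.84, 4.67 and 8.15 in arcuate, Cd163 had 46.7, 77.5 and 126 against 1.74, 2.88 and 3.81, and F13a1 had the largest difference, at -5.33 (SE 0.133).

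Other blood and immune cells left traces in nodose. All 9 lymphocyte genes tested were called higher in nodose, 1 of them past the minimum in both tissues, with Ptprc, the general leukocyte gene, at 31.2, 43.6 and 64.3 CPM against 2.74, 3.76 and 4.22. Of 5 mast cell genes, 4 were called higher in nodose, all of which passed the minimum in nodose alone, which favours such a call. The protease gene Mcpt4 had 26.3, 34.9 and 48.9 CPM in nodose and 3 counts in arcuate, a ratio of 2550 (95% counting interval 871 to 12400), and Cpa3 had 16.6, 23.7 and 29.3 CPM and 6 counts. Kit, which hypothalamic neurons also make, was not called. The red cell gene Alas2 had 249, 371 and 630 CPM in nodose and 1.19, 1.86 and 2.59 in arcuate, while the 4 globin symbols of that list were listed at 0 in all 24 libraries.

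Lists for structures near the ganglion were checked as well, and few of their genes passed the minimum in both tissues: 0 sympathetic, 1 thyroid, 2 cartilage and bone, and 1 epithelial. Of 4 sympathetic neuron genes tested, 2 were called higher in arcuate and 1 in nodose. That gene was Slc6a2, the noradrenaline transporter, with 12.8, 18.4 and 33.7 CPM in nodose and 6 counts in arcuate, but the enzymes Th and Dbh of the same neurons had 4 and 1 counts in nodose, and Hand2 had 1. Of 4 thyroid genes tested, 2 were called higher in arcuate and 1 in nodose, the latter being Tg with a median of 1.33 CPM in nodose. Of 4 cartilage and bone genes, 1 was called higher in arcuate (Acan) and 2 in nodose, with Col2a1 at 10.4, 17.4 and 43.3 CPM there. All 3 surface epithelium genes tested were called higher in arcuate, Epcam among them with a median of 2.81 CPM.

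Genes of fatty acid use and synthesis were called in nodose more than in arcuate. Of 13 genes of fatty acid oxidation and uptake, 12 past the minimum in both tissues, 12 were called higher in nodose and 1 in arcuate. Lpl, lipoprotein lipase, had 241, 646 and 1560 CPM in nodose and 3.9, 4.51 and 5.88 in arcuate, and Cd36, the fatty acid transporter, had 108, 252 and 514 against 4.42, 6.18 and 7.6. The exception was Cpt1c, the neuronal form of carnitine palmitoyltransferase, with 73, 83.7 and 91.7 CPM in arcuate and 7.1, 12.4 and 20.7 in nodose. Of 13 genes of fatty acid and triglyceride synthesis, 5 were called higher in nodose and 0 in arcuate. Acacb, the mitochondrial acetyl-CoA carboxylase of muscle and fat, had 75.7, 216 and 509 CPM against 8.6, 10.8 and 14.1, whereas Fasn, fatty acid synthase, had 347, 515 and 2160 CPM in nodose and 375, 384 and 419 in arcuate and was not called. Of 14 cholesterol synthesis genes, 1 was called higher in nodose and 0 in arcuate. That gene was Hmgcs1, with 456, 658 and 1240 CPM against 243, 273 and 306.

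Genes often used as references were called about as often as other genes. Of 10, all past the minimum in both, 2 were called higher in arcuate and 2 in nodose, near the background of 20.7% and 19.5%. Hprt had 148, 157 and 165 CPM in arcuate and 21.2, 24.6 and 31.1 in nodose (log2 fold change 2.65, SE 0.0492), and Ppia had 1.31. Rplp0 had 153, 166 and 177 CPM in arcuate and 372, 443 and 535 in nodose (log2 fold change -1.43, SE 0.0411), and Actb had -1.14, a call that was lost with DESeq2 (adjusted p = 0.0543) and without scaling factors. Gapdh had 1260, 1300 and 1420 CPM in arcuate and 446, 1200 and 3220 in nodose, a log2 fold change of 0.04 whose sign flipped to -0.11 with upper quartile factors. Of 77 genes of cytosolic ribosomal proteins tested, 2 were called higher in arcuate (Rps4l and Rpl22l1) and 3 in nodose (Rplp0, Rps27l and Rpl3l). Rpl3l, which striated muscle uses in place of Rpl3, had 18.8, 116 and 280 CPM in nodose and at most 0.493 in arcuate. Rps27l is named here after its value was seen.

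Classes of RNA that a library preparation can treat differently were looked at separately. Among 8 tested RNAs that lack a poly(A) tail or stay in the nucleus, 3 were called higher in arcuate and 4 in nodose. Malat1, a long nuclear RNA whose end is not a normal poly(A) tail, had 31500, 33800 and 40600 CPM in nodose and 966, 1350 and 2000 in arcuate. The small catalytic RNAs Rpph1 and Rmrp, made without a poly(A) tail, had 591, 792 and 1140 CPM and 222, 320 and 487 CPM in nodose, and at most 0.932 and 0.542 CPM in arcuate. Of 119 small nucleolar and Cajal body RNAs, 48 were tested, 30 were called higher in nodose and 1 in arcuate. Only 7 passed the minimum in both tissues, and of these 1 was called higher in nodose and 0 in arcuate (background 19.5% and 20.7%), so nearly all calls were of RNAs that entered the test through the tissue where they are high. Scarna2 had 112, 144 and 203 CPM in nodose and 0.0548, 0.259 and 0.788 in arcuate. Of 9 histone genes, 2 were tested and both were called higher in nodose. Neither passed the minimum in arcuate, so both entered the test through nodose.

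The nuclear RNAs higher in arcuate were those of neurons. Meg3 had 4260, 4670 and 5170 CPM in arcuate and 79.2, 104 and 140 in nodose, Snhg11 had 2530, 2720 and 3000 against 24.2, 38.7 and 50.3, and Miat had a log2 fold change of 3.68. The ribosomal RNA symbol Rn45s was not called. It had 38100, 54500 and 78100 CPM in arcuate and 16400, 20900 and 218000 in nodose, and without nodose ZT4 replicate 3 its log2 fold change went from 0.9 to 1.39 and passed the 2-fold test (adjusted p = 0.000396, edgeR). Gene length was not aligned with the difference in 1 direction. Over 5 groups of 3341 to 3343 genes by exon length, the median log2 fold change was -0.138 in the shortest, 0.139, 0.151 and 0.0262 in the middle groups and -0.109 in the longest. In the shortest group 29.8% of genes were called higher in nodose and 23.6% in arcuate by the 2-fold test. In the other groups 21 to 24.1% were called higher in nodose and 22.9 to 26.1% in arcuate. None of the 13 symbols searched for the messages of the mitochondrial genome was among the deposited counts, so they were not analysed here.

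The tissue difference was much the same at each time of day. By the 2-fold test, 3701 (21.7%), 3749 (22%), 3787 (22.2%) and 3789 (22.2%) genes were higher in arcuate at ZT4, ZT10, ZT16 and ZT22, and 3588 (21%), 3829 (22.4%), 3745 (21.9%) and 3730 (21.8%) were higher in nodose. Of the genes called over all times, 3209 of 4128 in arcuate (77.7%) and 3031 of 4192 in nodose (72.3%) were called the same way at all 4 times, and no gene was called in opposite directions at different times. In the HepDKO libraries 4185 (24.7%) of 16937 genes were called higher in arcuate and 4137 (24.4%) higher in nodose. Of the Control calls, 3968 (96.1% of the Control and 94.8% of the HepDKO list) and 3904 (93.1% and 94.4%) were called the same way there, and 0 the opposite way.

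A tissue difference that varied with time was found in 11 genes (0.0644%) by edgeR's quasi-likelihood test of the interaction, while 1622 genes had an unadjusted p under 0.05. The count was 284 with DESeq2 and 6 with a replicate block. Of the 5 with the lowest p, 4 belong to the circadian clock. Arntl, which encodes the clock activator BMAL1, had 29.3 ± 6.93, 3.54 ± 1.3, 15.7 ± 3.91 and 48.1 ± 6 CPM (mean ± SD, n = 3) at ZT4, 10, 16 and 22 in nodose, and 27.9 ± 0.618, 21.3 ± 1.49, 24.7 ± 2.63 and 30 ± 2.66 in arcuate. Its log2 fold change ran from -0.68 at ZT22 to 2.53 at ZT10 (interaction adjusted p = 7.13e-06, edgeR). Npas2, a partner of BMAL1, ran from -0.83 to 3 at the same times (0.000773). The clock repressors Nr1d1 and Per3 ran from -1 at ZT10 to 0.93 at ZT16 and from -1.46 at ZT10 to 0.38 at ZT22 (both 0.00209).

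The fifth, Hcn4, a pacemaker channel of heart and nerve, was higher in nodose at all 4 times but most at ZT16, with 242 ± 28.3 CPM there against 23.6 ± 1.29 in arcuate (log2 fold change -3.36, and -1.98 to -2.24 at the other times). In all 5 genes the nodose means moved over a wider range than the arcuate means. The number of genes past the threshold depended on single pools: it was 77 without nodose ZT10 replicate 3 and 36 without nodose ZT4 replicate 3, and 6 to 22 with any other library left out. The 5 genes named passed in each of these.

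**Figure D5:**
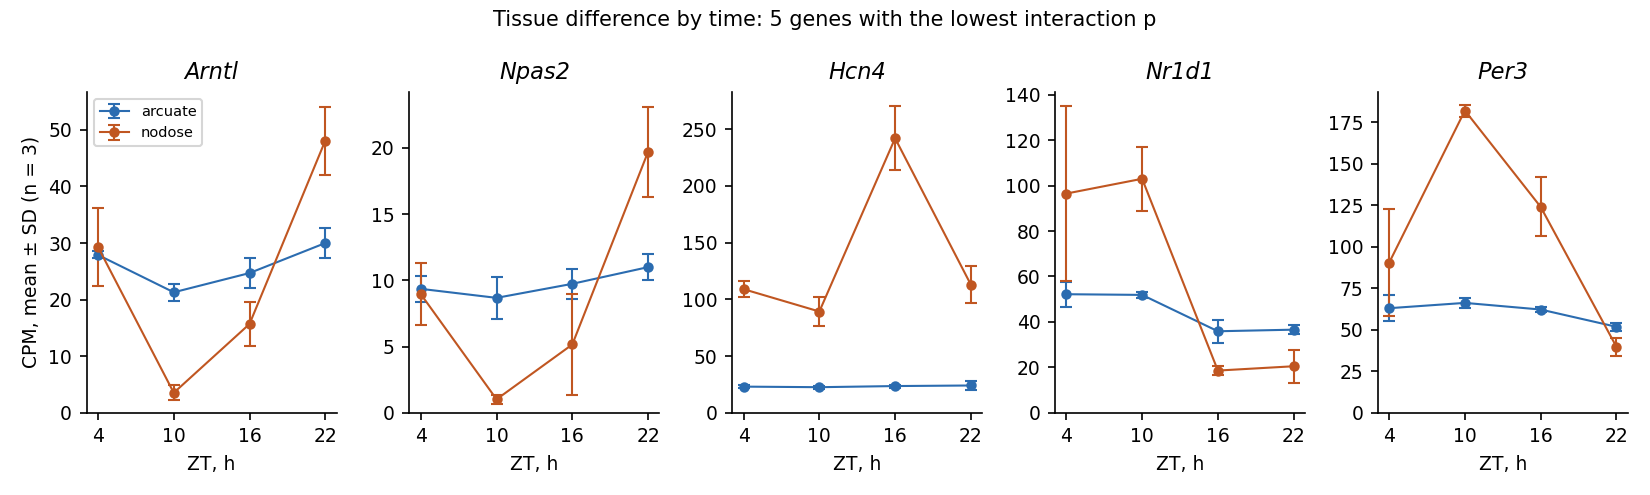
Mean level in CPM, with SD bars (n = 3 pools), of the 5 genes with the lowest p for a tissue difference that varies with time, against ZT in hours, in arcuate and nodose Control libraries. Arntl and Npas2 in nodose are lowest at ZT10 and highest at ZT22, Nr1d1 and Per3 are highest at ZT10, and the arcuate lines are flatter.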

How the data were processed

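RNA sequencing reads of 24 Control libraries, and of 24 HepDKO libraries as a second set, were analysed as the gene counts that the authors deposited, which are whole reads per gene symbol without normalisation. Per the submitters' processing notes, FastQC 0.11.7, Trim Galore 0.6.10 and STAR 2.7.10b were used with the mm10 build. The counting tool, its annotation, its use of strand and its handling of reads that match several genes are not given in the sources used here. Library groups were taken from the labels and the count columns were matched to samples by name.

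Counts were filtered with edgeR 4.0.16 (filterByExpr, minimum count 10, with tissue by time as groups), scaled with TMM factors and fitted with the robust quasi-likelihood model of time plus tissue, in R 4.3.3. Tests were the quasi-likelihood test, the test against a fold of 2 (glmTreat) and the interaction of tissue with time, each with Benjamini-Hochberg adjustment over all genes tested at a threshold of 0.05. Standard errors were approximated as the size of the log2 fold change over the square root of F. Exon lengths and gene positions came from GENCODE (GRCm38) and promoters from RefSeq (GRCm38.p6). A fold against a group with no counts was computed against 3 counts over the group. Intervals cover counting error only.

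Depth differed with tissue, and arcuate counts thinned to the median nodose total were 1 alternative. The others were DESeq2 1.42.0, limma 3.58.1 (voom with weights by tissue), other scaling factors and filters, no time covariate, a replicate block, and each library left out in turn. The fit was tested on simulated counts for 16627 genes in the arcuate against nodose comparison: of genes changed by a fold of 4, 99% were recovered by the quasi-likelihood test and 92.9% by the 2-fold test, and of those changed by a fold of 1.5, 59% and 0%. False calls were 14 of 171 by the quasi-likelihood test and 0 of 92 by the 2-fold test. Apart from 100 genes changed by 1.5 and 99 by 4, both tissues had the same mean in the simulation. It therefore did not test the scaling between tissues in which 48.7% of genes pass the 2-fold test.

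The genes named are members of the marker and function lists, the 12 genes with the largest fold in each direction at a median of at least 50 CPM, the 10 most abundant genes per tissue, and the 5 genes with the lowest interaction p. The members and lists were chosen with earlier results of these data known. Proteins of the isozymes were not compared. Some list members are not reported here by name.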

Additional observations from a re-analysis of the deposited data

Results flagged for a closer look

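Of the 17074 genes tested, 11 had a tissue difference that differed between the times of day, by the interaction test of edgeR's quasi-likelihood fit. The adjusted p was 7.13e-06 for Arntl, 0.000773 for Npas2, 0.00162 for Hcn4, 0.00209 for Nr1d1 and 0.00209 for Per3, whose levels are given above. Slc1a4, an amino acid transporter gene, had an adjusted p of 0.00307, and its log2 fold change was 5.25, 4.93, 3.87 and 4.64 at ZT4, 10, 16 and 22. The adjusted p was 0.0354 for each of Slc25a42, Tef, Inhbb and Lonrf3. Slc25a42, a mitochondrial carrier gene, had log2 fold changes of 0.95, -0.23, 0.92 and 1.01, and Tef, a transcription factor gene under clock control, 0.87, -0.07, 0.51 and 1.13. Inhbb, an activin subunit gene, had 0.39, -0.79, -1.5 and 0.19, and Lonrf3 had 1.68, 1.09, 0.09 and 0.88. Id2, an inhibitor of basic helix-loop-helix factors, had an adjusted p of 0.0399 and log2 fold changes of 1.29, 1.34, 0.63 and 1.78. The calls of Slc25a42, Tef, Inhbb, Lonrf3 and Id2 were lost in 15 to 18 of 27 alternatives, and those of the other 6 genes were kept in all 27.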

How the results depend on the processing

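Of 187 genes tested whose tissue difference is reported, 172 kept their direction and their side of the 2-fold test under every alternative run. Among the others, the log2 fold change of Gapdh went from 0.04 to -0.11 with upper quartile factors, -0.04 with genes past the minimum in both tissues, -0.05 without the time covariate and -0.04 with arcuate counts thinned, and ran from -0.05 to 0.16 with single libraries left out. Eef1a1 went from 0.06 to -0.1, -0.02 and -0.02 in the first, second and last of these, and Mag from 0.14 to -0.02 with upper quartile factors. The genes higher in arcuate by the 2-fold test went from 4128 to 2722 with genes past the minimum in both tissues, where fewer genes were tested. The 11 genes with a time-dependent difference became 284 with DESeq2, 6 with the replicate block and 6 to 77 with single libraries left out, and the cause was not tested. Left-out libraries gave 7622 to 7920 and 7461 to 7785 genes at an adjusted p under 0.05 in arcuate and nodose, and 4066 to 4271 and 4185 to 4419 by the 2-fold test. The arcuate share of counts of neuronal genes was 0.822% without muscle, adipocyte and ribosomal RNA symbols in the total and 0.727% with TMM scaling (0.773% as reported), of astrocytes 0.491% and 0.433% (0.461%), and of myelinating Schwann cells 0.0116% and 0.0103% (0.0111%). The nodose astrocyte share was 0.0293% without those symbols (0.0246%). The vagal list's share went from 0.148% to 0.0219% in arcuate and from 0.0194% to 0.00969% in nodose without Ntrk2, an alternative chosen after seeing the data. Deviations of the 12 same-numbered pairs of arcuate and nodose libraries correlated at -0.0284 to 0.0354. Of 12 arcuate libraries, 4 were closest to the nodose library of their own number. Unlike tissues need share no deviation even in the same mice, so these values cannot tell whether the numbers pair libraries. With the replicate block the 2-fold test called 4122 and 4189 genes. Depth limits genes near 0.0434 CPM in nodose and 0.0138 CPM in arcuate, the levels of 3 counts over each group.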
